A study of Rattus norvegicus with 24 samples.

Results

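The cytochrome P450 genes of the kidney were followed as a group in the left kidneys of 24 male PKD/Mhm (Cy/+) rats. A gene was taken when its rat symbol had the form of a P450 gene (Cyp, family number, subfamily letter, member number), with Cyp24a1 and Cyp27b1 left out, and when it reached 10 or more counts in at least 6 of the 24 samples. Of 17334 gene identifiers in the count tables, 71 had such a symbol and 43 of these reached the minimum. All 43 reached 10 counts in at least 1 animal of each of the 4 groups, and 34 did so in all 24 animals. The member nearest to the limit was Cyp3a9, with 10 or more counts in 8 samples, followed by Cyp1a1 and Cyp2c6v1 in 16 each. Cyp8b1 (5 samples) and Cyp2a3 (2 samples) stayed just under the limit.

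PKD/Mhm (Cy/+) rats carry a missense change in Anks6 on 1 allele and develop cystic kidneys, and every group carried it. All animals were 8 months old, were recognised as cystic by palpation of the abdomen, and each gave 1 left kidney, with 6 animals in each of 4 groups. The Ctrl group was untreated. The CoCM group received conditioned medium, taken from cultures in which ABCB5+ cells from human skin grew beside THP-1-derived macrophages that had been stimulated with interferon gamma and lipopolysaccharide. The ipABCB5 and ivABCB5 groups received the human ABCB5+ cells themselves, into the peritoneum or into a vein. Treatment was given monthly for 6 months. The sources differ on whether the medium was given into a vein or into the peritoneum, so CoCM is named here without a route. All control animals carried lower numbers than the treated ones, so any difference that goes with the order of the animals cannot be told apart from treatment. The model is a rat that received human cells, and no healthy (+/+) kidneys were analysed here.

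Cytochrome P450 enzymes are heme proteins that insert an oxygen atom into lipids, steroids and foreign compounds, and those in the endoplasmic reticulum draw electrons from the reductase Por. In the kidney, the Cyp4a enzymes hydroxylate arachidonic acid at its end to 20-HETE, which constricts vessels and lowers tubular sodium transport, while the Cyp2c enzymes, above all Cyp2c23 in the rat, turn it into epoxyeicosatrienoic acids, which dilate vessels. Both families are known from the proximal tubule, and several Cyp4a genes are classical targets of the nuclear receptor PPAR alpha. In the rat, Cyp2c11 is a male-typical gene of liver and kidney.

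Upstream sequences are shown for 3 pairs of neighbouring genes whose levels are described below, because members of a pair are close relatives that lie on the same chromosome. Of the 43 members, 35 were in the RefSeq promoter table (assembly GRCr8), and only the 250 bases before the annotated start were used. Each run below reads 5′ to 3′ on the strand of the gene. Capitals mark either TATAAA, the TATA box motif, which reads TTTATA where it lies on the opposite strand, or a direct repeat, 2 copies of AGGNCA with 1 spacer base, of the kind that PPAR alpha and HNF4 alpha bind. The Cyp4a pair, at chr5:134170909-134171158 (Cyp4a2) and chr5:134352237-134352486 (Cyp4a3), both on the minus strand, held neither motif.
Cyp4a2: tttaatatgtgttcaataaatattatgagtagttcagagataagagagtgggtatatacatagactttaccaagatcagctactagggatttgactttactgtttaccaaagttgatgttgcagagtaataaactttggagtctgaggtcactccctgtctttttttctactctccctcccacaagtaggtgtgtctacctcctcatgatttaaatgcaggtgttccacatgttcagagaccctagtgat
Cyp4a3: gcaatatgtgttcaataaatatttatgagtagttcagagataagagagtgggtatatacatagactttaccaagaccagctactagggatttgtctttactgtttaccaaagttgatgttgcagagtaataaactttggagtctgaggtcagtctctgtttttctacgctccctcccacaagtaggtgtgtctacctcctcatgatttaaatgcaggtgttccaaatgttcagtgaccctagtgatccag
The Cyp2c pair, at chr1:246174966-246175215 (Cyp2c11) and chr1:246286091-246286340 (Cyp2c24), both on the plus strand, shared a TATA box that began 31 and 29 bases before the start.
Cyp2c11: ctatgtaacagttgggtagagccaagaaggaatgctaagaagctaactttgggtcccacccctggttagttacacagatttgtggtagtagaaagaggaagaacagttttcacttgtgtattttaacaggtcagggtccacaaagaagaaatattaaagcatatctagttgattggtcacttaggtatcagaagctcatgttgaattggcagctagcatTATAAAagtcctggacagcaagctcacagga
Cyp2c24: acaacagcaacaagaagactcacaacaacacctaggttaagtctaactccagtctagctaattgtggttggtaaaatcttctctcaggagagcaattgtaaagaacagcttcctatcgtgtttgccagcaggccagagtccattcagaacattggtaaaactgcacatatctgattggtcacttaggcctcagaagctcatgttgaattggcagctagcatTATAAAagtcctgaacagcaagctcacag
The Cyp2d pair, at chr7:115793431-115793680 (Cyp2d1) and chr7:115784488-115784737 (Cyp2d5), both on the minus strand, held the direct repeat and, on the opposite strand, the TATA box letters.
Cyp2d1: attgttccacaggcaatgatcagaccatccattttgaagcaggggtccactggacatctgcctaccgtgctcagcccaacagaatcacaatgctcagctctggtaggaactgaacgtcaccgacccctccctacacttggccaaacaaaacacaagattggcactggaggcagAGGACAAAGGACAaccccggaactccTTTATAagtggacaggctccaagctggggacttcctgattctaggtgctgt
Cyp2d5: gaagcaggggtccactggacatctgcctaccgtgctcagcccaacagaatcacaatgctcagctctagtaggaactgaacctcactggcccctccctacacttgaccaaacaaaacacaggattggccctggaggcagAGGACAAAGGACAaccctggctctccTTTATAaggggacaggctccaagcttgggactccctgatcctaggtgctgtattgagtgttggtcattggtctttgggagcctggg

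Aligned over the window, Cyp4a2 and Cyp4a3 were identical at 236 of 255 positions (92.5%), Cyp2d1 and Cyp2d5 at 70.5% and Cyp2c11 and Cyp2c24 at 62.7%, whereas Cyp4a8 shared 54.2% with Cyp4a2 and Cyp2c23 shared 43.1% with Cyp2c11. TATAAA, searched on both strands, stood in 7 of the 35 member windows and in 7.16% of the 10323 windows of genes tested here. The direct repeat stood in 2 members, Cyp2d1 and Cyp2d5, and in 0.281% of the same windows. GCGTG, the core of the xenobiotic response element, stood in 11 of 35 member windows against 42.7%. A match is a description of the letters only.

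Total counts per animal ran from 9304630 to 14125457. In the smallest library, 3 counts corresponded to 0.322 CPM (counts scaled to the same library total) before TMM scaling. The CPM values below are after TMM scaling, with factors from 0.81 to 1.11. In marker levels, 4 treated animals (CoCM 39, ipABCB5 38, ivABCB5 36 and ivABCB5 37) stood apart from the other 20. They were listed by name, without a stated cut-off. Their CPM for Spp1, the osteopontin gene of injured tubules, lay between 370.1 and 669.5, against 6596 to 13004 in the other 20. The summed CPM of 14 proximal tubule markers was 16148 to 28742 in these 4 and 3684 to 14300 in the others, and that of 12 injured tubule markers was 1814 to 2205 against 10043 to 19063. Most fold changes of the P450 genes named below are therefore also given without these 4 animals, and those of other genes with all 24. Such fits leave out treated animals only, picked by marker levels that several P450 genes follow (below). They show how far a fold change rests on these 4 animals, and cannot tell treatment apart from the state of the tissue. Proximal tubule markers were abundant in every library, the lowest Lrp2 (megalin) level being 420.3 CPM, so the tissue label held.

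Levels of different members were compared in TPM, a unit that corrects counts for transcript length and library total. Cyp4a2 was the most abundant P450 transcript, with a mean of 1867 TPM over 24 animals (lowest 316.8, highest 4704). Cyp2c23 followed with 857.6 TPM, Cyp4a3 with 520.1, Cyp4a8 with 381.7 and Cyp2e1, an ethanol- and ketone-metabolising enzyme, with 166.5. These 5 genes held between 59.7% and 89.4% of the P450 TPM of an animal, with a median of 86.6%. The next 5 were Cyp4f1 (84.96 TPM), Cyp2d1 (48.01), Cyp4b1 (44.92), Cyp4v3 (44.3) and Cyp2d2 (38.4), and the lowest member was Cyp3a9 with 0.575. From Cyp4a2 to Cyp2d2, the ranges of all neighbours in the order overlapped, so the order is that of the means.

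All 43 members together took 0.18% of the counts in Ctrl 12 and 1.44% in ivABCB5 37. In the other Ctrl animals the share was 0.25%, 0.27%, 0.6%, 0.68% and 0.83%, so untreated kidneys alone differed by more than 4-fold. Since whole kidneys were sequenced, fewer cells of a type and less RNA per cell cannot be told apart.

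Among the Cyp4a hydroxylases, Cyp4a2 (Entrez 24306) made up 59.1% to 70.6% of the family's TPM, Cyp4a3 (298423) 16.7% to 21%, Cyp4a8 (266674) 10.4% to 18.9% and Cyp4a1 (50549), the PPAR alpha-responsive form of liver, 0.474% to 4.03%. Counts of Cyp4a2 and Cyp4a3 were not whole numbers in 18 and 22 of the samples, which is how reads shared between near-identical transcripts appear in the estimates, and the division between these 2 genes is uncertain.

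Cyp4a2 levels in Ctrl ran from 405.2 CPM (animal 12) over a median of 1646 to 3735 (animal 24). In CoCM the lowest, median and highest were 866.8, 2762 and 5247 CPM, in ipABCB5 1146, 2882 and 3768, and in ivABCB5 1627, 2468 and 7801. The ranges of all 4 groups overlapped, and in ivABCB5 animals 36 and 37 lay far above the other 4, which stayed inside the range of Ctrl. The log2 fold change against Ctrl was 0.61 ± 0.56 (SE, n = 6 against 6) for CoCM, 0.48 ± 0.56 for ipABCB5 and 1.09 ± 0.56 for ivABCB5. None passed edgeR's quasi-likelihood test after Benjamini-Hochberg adjustment over all 12778 genes tested (adjusted p = 0.608, 0.978 and 0.673). The two-sided exact permutation test of the 12 animals gave p = 0.305, 0.24 and 0.104, where 0.00216 is the smallest value that 924 divisions allow.

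Cyp4a3 and Cyp4a8 had the same extreme animals as Cyp4a2, with Ctrl 12 lowest (140.1 and 129.4 CPM) and ivABCB5 37 highest (2142 and 1723 CPM). Their log2 fold changes against Ctrl lay between 0.49 and 1.01, with unadjusted p-values from 0.0599 to 0.348 and adjusted p-values from 0.506 to 0.978. Cyp4a1 behaved otherwise: its medians were 42.12 CPM in Ctrl, 40.79 in CoCM, 41.83 in ipABCB5 and 60.74 in ivABCB5. Its log2 fold change was -0.23 ± 0.27 for CoCM, -0.20 ± 0.27 for ipABCB5 and 0.37 ± 0.27 for ivABCB5, and the groups overlapped throughout. Without the 4 animals that stood apart, the ivABCB5 values became 0.16 ± 0.54 for Cyp4a2, 0.20 ± 0.50 for Cyp4a3, 0.20 ± 0.53 for Cyp4a8 and 0.072 ± 0.29 for Cyp4a1. Cyp4a2 was then at 0.32 ± 0.51 for CoCM and 0.37 ± 0.51 for ipABCB5.

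**Figure D1:**
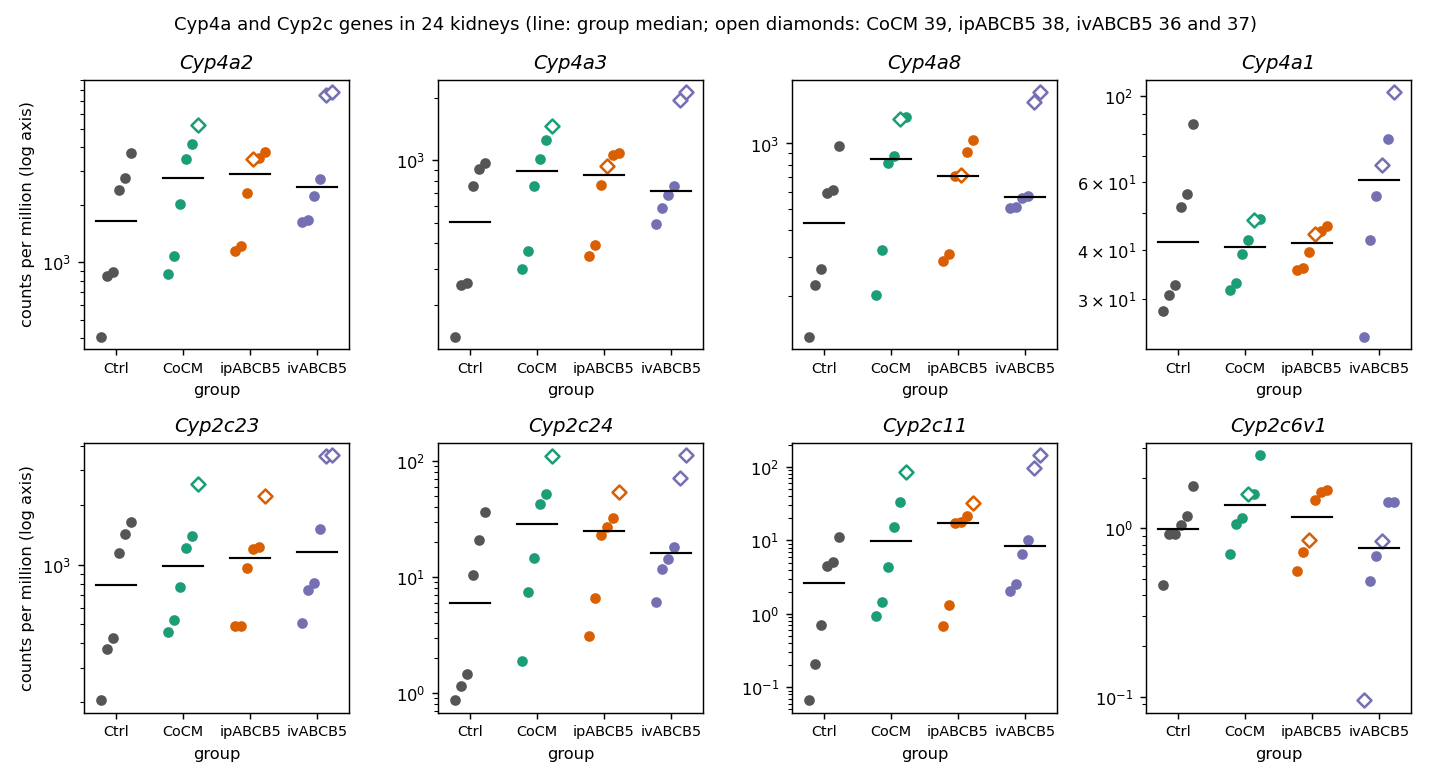
CPM (log axis) of the Cyp4a and Cyp2c genes in each of 24 kidneys, by group; lines are group medians and open diamonds mark CoCM 39, ipABCB5 38, ivABCB5 36 and ivABCB5 37. For Cyp4a2, Ctrl animals span 405.2 to 3735 CPM and all 4 groups overlap.

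Of the Cyp2c epoxygenases, Cyp2c23 (83790) held 92.8% to 99.4% of the family's TPM. Its lowest, median and highest CPM were 204.7, 785.7 and 1633 in Ctrl, 456.2, 985.7 and 2561 in CoCM, 487.5, 1079 and 2220 in ipABCB5, and 503.5, 1160 and 3575 in ivABCB5. The groups overlapped, and the 4 animals that stood apart were the 4 highest of all 24. The log2 fold change against Ctrl was 0.41 ± 0.57 for CoCM, 0.34 ± 0.57 for ipABCB5 and 1.04 ± 0.58 for ivABCB5 (adjusted p = 0.739, 0.978 and 0.673, edgeR). Without those 4 animals the 3 values were -0.015 ± 0.47, 0.0034 ± 0.47 and 0.035 ± 0.51.

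Cyp2c11 (29277), a testosterone hydroxylase in male rats, and Cyp2c24 (499353) were much lower but ranged far more widely. Cyp2c11 was at 1 count in Ctrl 12 (0.0664 CPM), had a Ctrl median of 2.6 CPM and reached 11.26 CPM in Ctrl 24. Its lowest, median and highest CPM were 0.947, 9.78 and 86.49 in CoCM, 0.676, 17.51 and 32.7 in ipABCB5, and 2.06, 8.36 and 144 in ivABCB5. In each treated group 2 to 4 of the 6 animals lay above every Ctrl animal, and the others overlapped with Ctrl. The log2 fold changes were 2.68 ± 1.25 (unadjusted p = 0.0427, adjusted p = 0.408), 2.05 ± 1.23 (0.11 and 0.978) and 3.57 ± 1.28 (0.0106 and 0.673) by edgeR, and the exact permutation p-values were 0.117, 0.113 and 0.0649. When the 4 animals were left out, they were 1.57 ± 1.01, 1.67 ± 1.01 and 0.54 ± 1.09. Ctrl 12 held 1 count and Ctrl 1 held 3, so the low end of these folds rests on counting error.

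Cyp2c24 had Ctrl values from 0.863 CPM (animal 12) to 36.16 CPM (animal 24), a 41.9-fold range among untreated kidneys. Its highest values were 109.2 CPM in CoCM 39, 54.26 in ipABCB5 38 and 111.6 in ivABCB5 36. The log2 fold changes were 1.68 ± 0.96, 1.04 ± 0.95 and 1.71 ± 0.96, with adjusted p-values of 0.465, 0.978 and 0.673. Without the 4 animals they were 0.98 ± 0.86, 0.64 ± 0.86 and 0.08 ± 0.93. Cyp2c6v1 (293989) stayed between 0.095 and 2.71 CPM in all 24 animals, and its counts were not whole in any of them. It did not share the order of the other 3 genes, since ivABCB5 36 was its lowest animal. The other 4 Cyp2c genes of the tables (Cyp2c7, Cyp2c12, Cyp2c13 and Cyp2c22) did not exceed 3 counts in any animal.

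**Figure D2:**
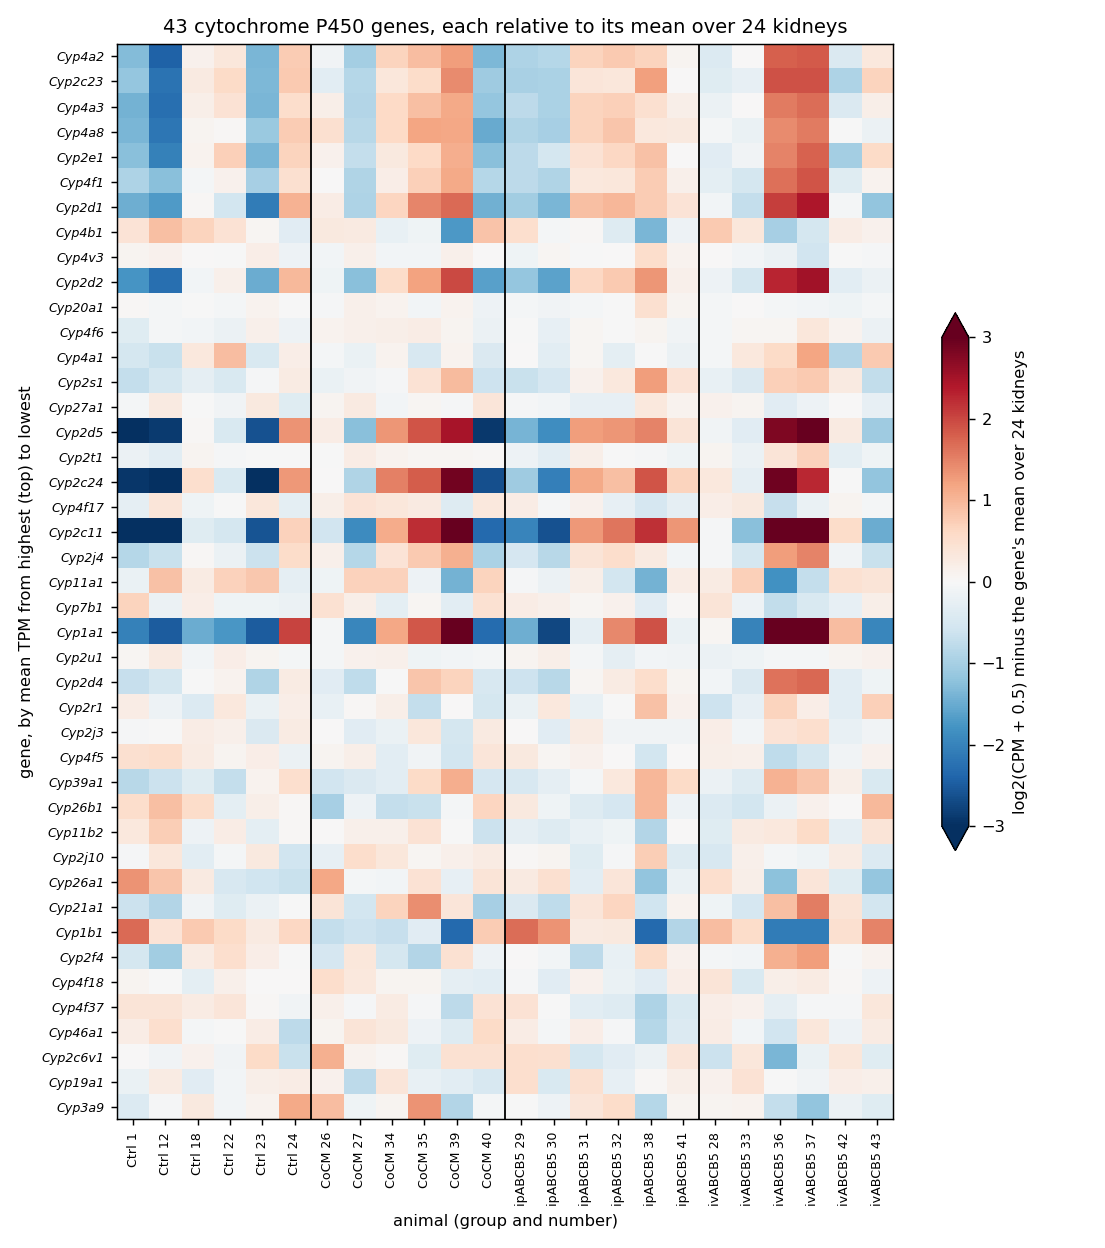
Each of the 43 P450 genes (rows, by mean TPM) in each of 24 kidneys (columns, by group), as log2(CPM + 0.5) minus the gene's mean over the 24 kidneys; red is higher and blue lower, and the scale ends at 3 in either direction. The 6 most abundant genes, from Cyp4a2 to Cyp4f1, are low in Ctrl 1, 12 and 23 and high in ivABCB5 36 and 37, while Cyp4b1, Cyp11a1 and Cyp1b1 are low in the 4 animals that stood apart.

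Cyp2e1 ran from 38.16 CPM (Ctrl 12) to 539.9 (ivABCB5 37), with group medians of 117.7 in Ctrl, 182.4 in CoCM, 186.8 in ipABCB5 and 191.7 in ivABCB5. Its log2 fold changes were 0.38 ± 0.51, 0.39 ± 0.51 and 0.90 ± 0.52, and the groups overlapped. When the 4 animals were left out, they were 0.11 ± 0.46, 0.22 ± 0.46 and 0.059 ± 0.49. Cyp4f1, which hydroxylates leukotrienes and other long-chain lipids, had medians of 81.98, 120.3, 130.6 and 105 CPM in the same order of groups and a highest value of 415.2 in ivABCB5 37. Its fold change for ivABCB5 was 1.07 ± 0.46 (unadjusted p = 0.0308, adjusted p = 0.673), and 0.046 ± 0.36 without the 4 animals.

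Other Cyp4 genes were steadier. Cyp4v3, the counterpart of the human retinal fatty acid hydroxylase gene CYP4V2, lay between 68.77 and 149.6 CPM, and its 2 extremes were ivABCB5 37 and ipABCB5 38. Its difference between routes, 0.24 ± 0.11 for ipABCB5 minus ivABCB5, had an unadjusted p of 0.0338 and an adjusted p of 1, and these 2 animals are the highest and lowest of the 12 compared. It was 0.042 ± 0.077 without the animals that stood apart. Cyp4f6 was at 30.09 to 43.33 CPM in Ctrl (median 35.75) and at 34.11 to 45.14 in CoCM (median 42.13), overlapping, with a log2 fold change of 0.19 ± 0.09 (unadjusted p = 0.044, adjusted p = 0.41), and 0.19 ± 0.091 without the 4 animals. Cyp4b1, a hydroxylase of short fatty acids and foreign compounds, ran against the abundant genes: it was highest in Ctrl 12 (102.1 CPM) and lowest in CoCM 39 (16.27 CPM), and the 4 animals that stood apart were its 4 lowest. Its log2 fold changes were -0.33 ± 0.34, -0.54 ± 0.34 and -0.31 ± 0.34, and without the 4 animals -0.14 ± 0.22, -0.38 ± 0.22 and -0.018 ± 0.24. Cyp4f37 was lower in ipABCB5 (median 1.86 CPM) than in Ctrl (3.21), by -0.52 ± 0.24 (unadjusted p = 0.0389, adjusted p = 0.978) and by -0.39 ± 0.19 without the 4 animals, and its counts were not whole in any sample.

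The 3 Cyp2j genes, epoxygenases of arachidonic and linoleic acid, had mean levels of 13.68 TPM (Cyp2j4), 4.76 (Cyp2j3) and 2.18 (Cyp2j10). Cyp2j4 followed the abundant genes, from 8.53 CPM in CoCM 40 to 48.79 in ivABCB5 37, with a log2 fold change of 0.71 ± 0.41 for ivABCB5 and of -0.11 ± 0.36 without the 4 animals. Cyp2j3 and Cyp2j10 had log2 fold changes between -0.11 and 0.27 in the 3 comparisons with Ctrl, and between -0.10 and 0.27 without the 4 animals.

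Among the genes of foreign-compound metabolism, the 4 Cyp2d members all had positive log2 fold changes in the 3 comparisons with Ctrl. Cyp2d1 lay at 8.79 to 80.95 CPM in Ctrl (median 20.33) and at 17.09 to 213.1 CPM in ivABCB5 (median 37.53). Cyp2d2 lay at 6.24 to 62.6 CPM in Ctrl (median 20.49) and at 21.93 to 182.9 in ivABCB5 (median 28.18). Both groups overlapped, and the ivABCB5 maxima were again animal 37. The ivABCB5 fold changes were 1.44 ± 0.69 for Cyp2d1, 1.52 ± 0.72 for Cyp2d2, 2.04 ± 0.96 for Cyp2d5 and 0.98 ± 0.41 for Cyp2d4, with unadjusted p-values between 0.0249 and 0.0489 and adjusted p-values of 0.673. Without the 4 animals, Cyp2d1 gave -0.077 ± 0.63, Cyp2d2 0.013 ± 0.62, Cyp2d5 0.11 ± 0.92 and Cyp2d4 -0.0012 ± 0.31. Their counts were not whole in 18 to 23 of the samples, so some reads fit more than 1 transcript and the level of each gene is uncertain. Cyp2d5 was named after its values were seen.

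Cyp1a1, the classical target of the aryl hydrocarbon receptor, had the widest spread of all members. In Ctrl it was at 0.266 to 1.03 CPM in 5 animals and at 17.04 CPM in animal 24. Its lowest, median and highest CPM were 0.364, 6.4 and 44.04 in CoCM, 0.15, 3.18 and 15.63 in ipABCB5, and 0.575, 5.82 and 194.8 in ivABCB5. Groups overlapped, and in ivABCB5 animals 36 and 37 held 136.2 and 194.8 CPM against at most 7.63 in the other 4. The log2 fold change for ivABCB5 against Ctrl was 4.11 ± 1.45 (unadjusted p = 0.0096, adjusted p = 0.673, exact permutation p = 0.121), and without the 4 animals it was -0.064 ± 1.2. Between routes, ipABCB5 minus ivABCB5 was -3.34 ± 1.4 (unadjusted p = 0.0254, adjusted p = 1) and 0.24 without them.

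Cyp1b1, which metabolises oestrogens and aryl hydrocarbons and is known from stromal cells, moved the other way, and was singled out after its values were seen. It was at 2.58 to 7.7 CPM in Ctrl (median 3.33) and at 0 to 3.79 in CoCM (median 1.1). In CoCM 5 of 6 animals lay below every Ctrl animal, and animal 40 lay within the Ctrl range. The log2 fold change was -1.44 ± 0.80 (unadjusted p = 0.0859, adjusted p = 0.456) by edgeR, the exact permutation p was 0.0108, not adjusted over members, and without the 4 animals the fold change was -1.2 ± 0.48 (unadjusted p = 0.0203, adjusted p = 0.24). Of 43 members, 2 had an exact permutation p under 0.05 for CoCM against Ctrl (Cyp1b1 and Cyp2t1). The same test gave 2 for ipABCB5 and 0 for ivABCB5 against Ctrl, and 1 between routes. The 2 libraries without a count, CoCM 39 and ipABCB5 38, allow up to 3 counts each, and ivABCB5 36 and 37 held 1 count each. Summed levels of 5 fibroblast and myofibroblast markers were 592.3 to 1676 CPM in Ctrl (median 956.4) and 311.9 to 1505 in CoCM (median 694.3), and their part in the Cyp1b1 values was not tested.

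Cyp20a1, an orphan enzyme without a settled substrate, and Cyp2u1, a fatty acid hydroxylase of brain and thymus, were the steadiest members, with within-group SDs of 0.131 and 0.137 on the log2 scale. Cyp20a1 ranged from 43.36 to 67.83 CPM and Cyp2u1 from 10.5 to 15.46 CPM over all 24 kidneys.

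The 11 members of steroid, sterol, bile acid and retinoid metabolism had log2 fold changes against Ctrl between -0.66 and 0.97, with medians of 0.03 for CoCM, -0.04 for ipABCB5 and -0.04 for ivABCB5. The most abundant was Cyp27a1, the mitochondrial sterol 27-hydroxylase, at 21.95 TPM, which stayed between 25.29 and 42.27 CPM. Cyp11a1, which cleaves the side chain of cholesterol, was at 8.71 to 19.98 CPM in Ctrl and at 2.66 to 3.64 CPM in CoCM 39, ipABCB5 38 and ivABCB5 36. Its log2 fold change was -0.66 ± 0.40 for ipABCB5 (adjusted p = 0.978), and -0.49 ± 0.24 without the 4 animals. Cyp21a1, the steroid 21-hydroxylase, had a log2 fold change of 0.97 ± 0.46 for ivABCB5 (unadjusted p = 0.0463, adjusted p = 0.673), and 0.22 ± 0.46 without the 4 animals, at levels of 0.875 to 7.44 CPM over the 24 animals.

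Cyp11b2, the aldosterone synthase gene, was at 4.26 to 9.16 CPM in Ctrl (median 5.9), 2.67 to 5.33 in ipABCB5 (median 4.41) and 4.01 to 8.18 in ivABCB5 (median 6.64). All 6 ipABCB5 animals lay below the mean of Ctrl and below that of ivABCB5, with overlapping ranges. The log2 fold changes of ipABCB5 were -0.52 ± 0.22 against Ctrl (unadjusted p = 0.0274, adjusted p = 0.978) and -0.53 ± 0.22 against ivABCB5 (unadjusted p = 0.0264, adjusted p = 1), and the exact permutation p was 0.0368 in both. Without the 4 animals they were -0.42 ± 0.22 (unadjusted p = 0.0711) and -0.26 ± 0.24 (unadjusted p = 0.291). Its counts were not whole in any of the 24 samples, while Cyp11b1, the 11-beta-hydroxylase gene, did not exceed 2 counts, so these values may include reads that fit more than 1 transcript. Of 6 adrenal cortex markers, Nr5a1 and Akr1b7 had 0 counts in 14 animals each, Star did not exceed 1.29 CPM, and the summed level was 11.56 to 50.28 CPM, carried by Mrap and Inha.

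Across the 43 members, no adjusted p was under 0.05 in any of the 6 tests. For CoCM against Ctrl, 0 of 43 members were called against 0.00783% of all genes tested, and 2 had an unadjusted p under 0.05 (Cyp4f6 and Cyp2c11, both higher) against 11.9% of all genes (5.96% higher and 5.96% lower). For ipABCB5 against Ctrl, 0 were called (0% of all genes) and 2 had an unadjusted p under 0.05 (Cyp11b2 and Cyp4f37, both lower) against 1.77% (1.26% higher and 0.509% lower). For ivABCB5 against Ctrl, 0 were called (0%) and 8 had an unadjusted p under 0.05, all higher, against 5.78% in either direction, 4.44% higher and 1.34% lower. These were Cyp1a1, Cyp2c11, Cyp2d4, Cyp4f1, Cyp2d5, Cyp21a1, Cyp2d2 and Cyp2d1. The 3 comparisons share the 6 control animals.

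The counts at an unadjusted p rested on single animals. That for CoCM was 6 without Ctrl 24, 5 without CoCM 40 and 0 to 2 without each other animal. Over all genes the CoCM count was 1523 of 12778, with 1131 of 12832 without Ctrl 24 and 2014 of 12824 without CoCM 40. The member count for ipABCB5 was 0 without Ctrl 12 or ipABCB5 38, 3 without ipABCB5 29 and otherwise 1 or 2. Over all genes it was 226 of 12778, with 179 of 12817 without Ctrl 12. It was 81 of 12840 without ipABCB5 38 and 633 of 12827 without ipABCB5 29. The ivABCB5 count of members was 18 without Ctrl 24, 13 without ivABCB5 42, 2 without Ctrl 1, ivABCB5 36 or ivABCB5 37, 3 without Ctrl 12 or Ctrl 23, 5 to 11 without each of the other 5, and 0 without the 4 animals that stood apart. Over all genes it moved as well, from 738 of 12778 to 1247 of 12832 without Ctrl 24 and 329 of 12828 without Ctrl 1. It was 250 of 12830 without ivABCB5 36 and 159 of 12884 without the 4 animals. For ipABCB5 against ivABCB5, 0 members were called (0% of all genes) and 4 had an unadjusted p under 0.05 (Cyp4v3 higher, Cyp4a1, Cyp1a1 and Cyp11b2 lower; 0 without ivABCB5 37, 1 without ivABCB5 36 or ipABCB5 38 and 6 without ivABCB5 42) against 2.14% (0.689% higher and 1.46% lower). For CoCM against the mean of both cell groups, 0 were called (0%) and 0 had an unadjusted p under 0.05, against 7% of all genes (3.21% higher and 3.79% lower). The F-test over the 4 groups called 0 (0%), with 1 unadjusted p under 0.05, that of Cyp1a1, against 4.71%. Leaving out 1 animal gave 0 to 3 members for the F-test, with 0 without ivABCB5 36 or 37. It gave 0 to 2 for CoCM against the mean of both cell groups. DESeq2 also called 0 members in each of the 6 tests. In the order given here, it gave 2, 2, 11, 4, 0 and 2 members an unadjusted p under 0.05. Over all 12778 genes tested these counts were 1725, 277, 968, 360, 1112 and 897. Limma with quality weights called 0 members as well. Its unadjusted counts were 4, 8, 1, 1, 3 and 2 members, against 2834, 1242, 775, 886, 2376 and 2265 of all genes.

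No member had groups that did not overlap, in any of 4 pairs of groups. Over all genes tested the share without overlap was 1.38% for CoCM and Ctrl, 0.047% for ipABCB5 and Ctrl, 0.11% for ivABCB5 and Ctrl and 0.0626% for the cell groups. Positive log2 fold changes against Ctrl numbered 29 of 43 for CoCM, 26 for ipABCB5 and 26 for ivABCB5. The median over members was 0.19, 0.07 and 0.16, against 0.0088, 0.0037 and 0.013 over all genes tested. Positive values numbered 27, 22 and 20 without the 4 animals, and the medians were then 0.15, 0.0034 and -0.0012. By family, the median for ivABCB5 was 0.98 for the 4 Cyp4a genes and 1.38 for the 4 Cyp2c genes. It was 0.75 for the 12 foreign-compound and other Cyp1 to Cyp3 genes (Cyp2u1 among them) and -0.12 for the 8 other Cyp4 genes. For CoCM these were 0.63, 1.08, 0.37 and 0.05, and for ipABCB5 0.48, 0.69, 0.31 and -0.10. The ivABCB5 medians without the 4 animals were 0.18, 0.058, 0.0059 and -0.015, those for CoCM 0.36, 0.72, 0.18 and 0.059, and those for ipABCB5 0.4, 0.44, 0.13 and -0.043.

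**Figure D3:**
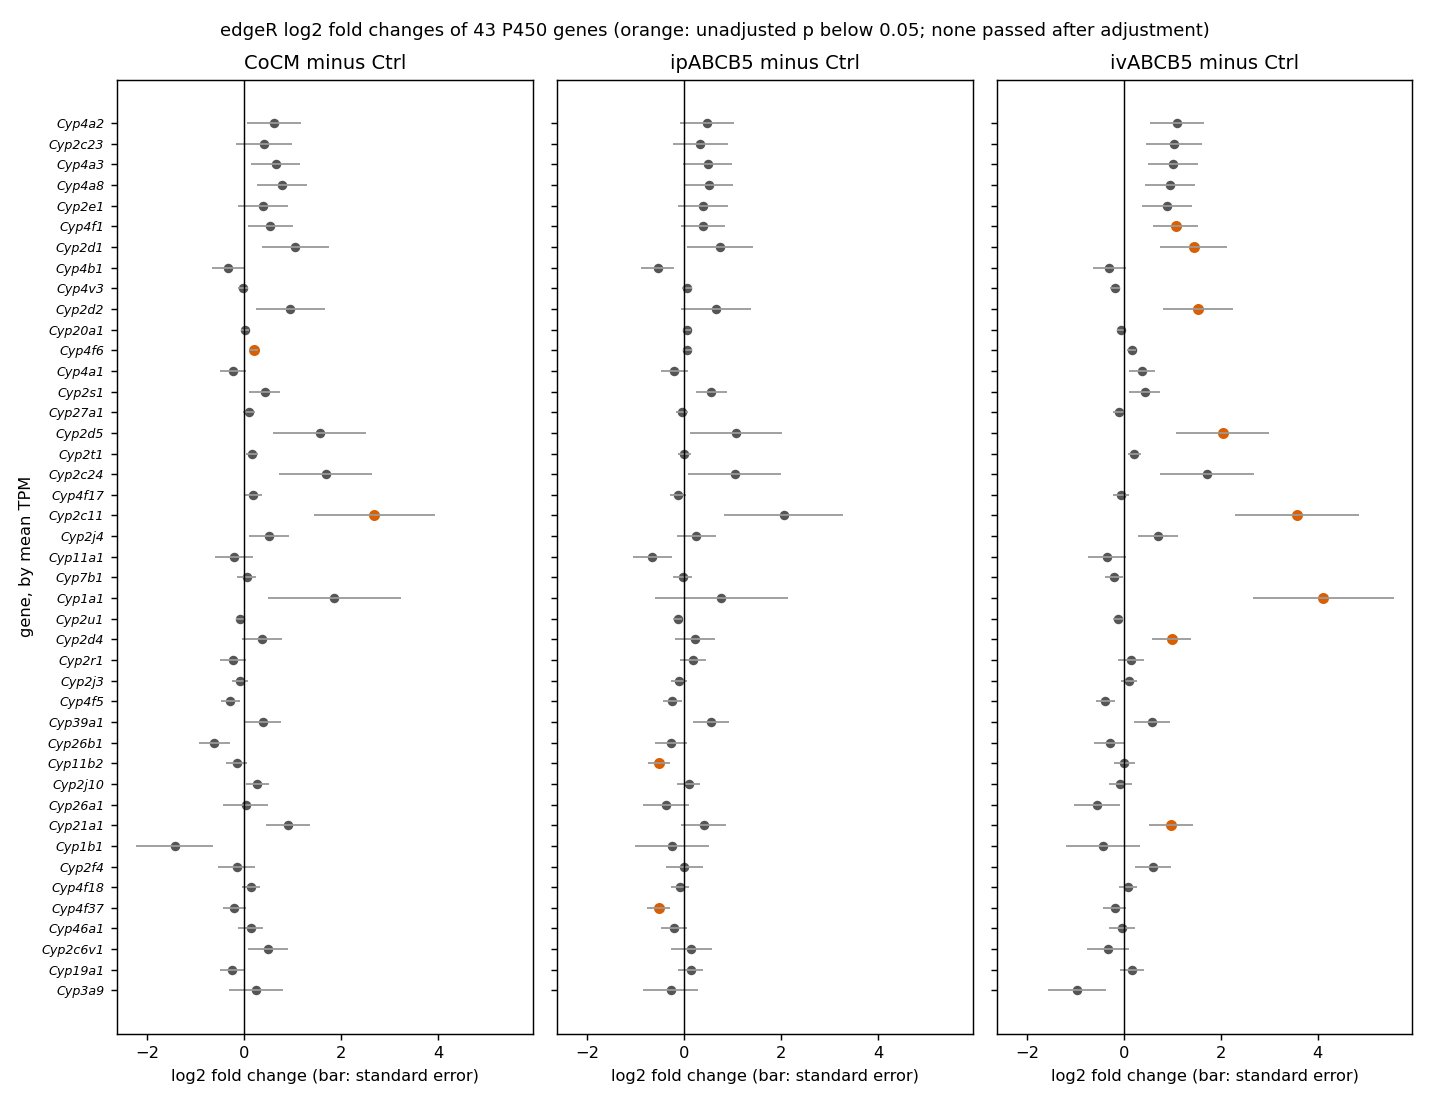
Log2 fold changes against Ctrl (points, with standard errors as bars) of the 43 P450 genes, ordered by mean TPM, for CoCM, ipABCB5 and ivABCB5, with 6 animals per group. Orange marks an unadjusted p under 0.05 (2, 2 and 8 genes); no gene passed after adjustment, and the widest bars belong to Cyp1a1 and Cyp2c11.

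Spread between animals of the same group was large for these genes. The within-group SD of log2 CPM had a median of 0.633 over the 43 members and 0.3 over all genes tested, and it exceeded 1 in 9 members (20.9%) against 6.05% of all genes. It was highest for Cyp1a1 (2.60), Cyp2c11 (2.41), Cyp2c24 (1.90), Cyp2d5 (1.87) and Cyp1b1 (1.69). The SD was larger than the widest gap between any 2 group means for 23 of the 43 members (53.5%) and for 61% of all genes tested. In the untreated group alone the SD was 1.24 for Cyp4a2, 1.22 for Cyp2c23 and 2.31 for Cyp2c11, so the spread was present without treatment. Without the 4 animals that stood apart, the median SD was 0.49 for members and 0.233 for all genes.

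**Figure D4:**
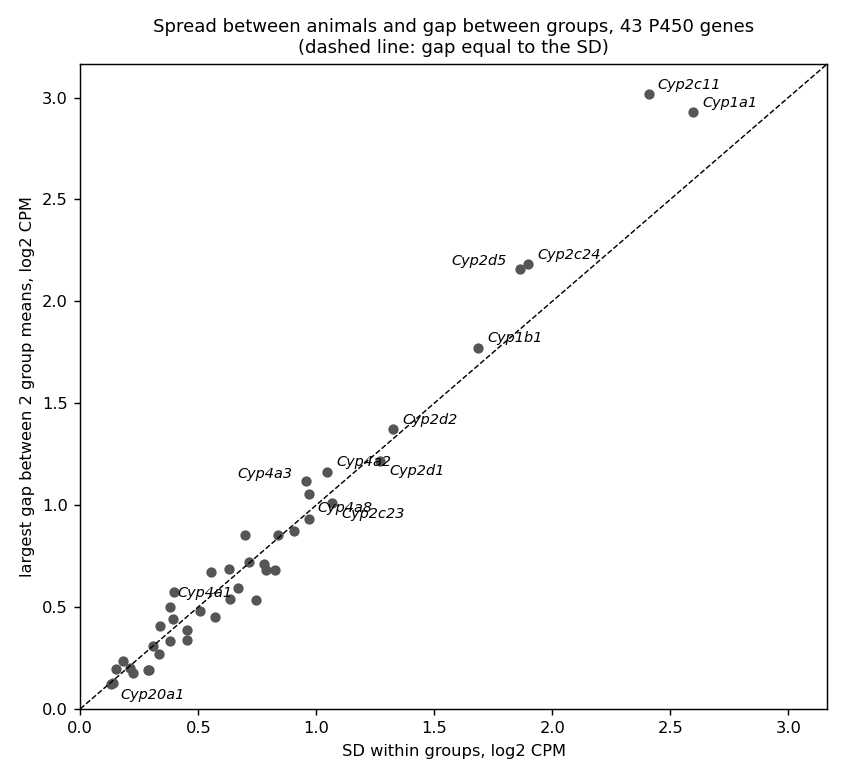
Within-group SD of log2 CPM (x axis) and the widest gap between 2 of the 4 group means (y axis) for each of the 43 P450 genes; the dashed line marks equality. Genes lie along the line, 23 of 43 below it, and Cyp1a1 (SD 2.60) and Cyp2c11 (SD 2.41) lie above its upper end.

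The 4 animals that stood apart were the 4 highest of the 24 in 7 members (Cyp2c23, Cyp2e1, Cyp4f1, Cyp2d2, Cyp2c24, Cyp2s1 and Cyp39a1), or 16.3%, against 10% of all genes tested. They were the 4 lowest in 6 members (Cyp4b1, Cyp11a1, Cyp7b1, Cyp4f5, Cyp1b1 and Cyp3a9), or 14%, against 14.2% of all genes. The pattern was not limited to these 4: Ctrl 12 was the lowest of all 24 animals for Cyp4a2, Cyp2c23, Cyp4a3, Cyp4a8, Cyp2e1 and Cyp4f1 and the highest for Cyp4b1.

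The most abundant members ran alongside proximal tubule markers. Over the 20 animals other than those 4, Cyp2c23 and the summed proximal tubule markers (14 genes, none of them a P450) had Pearson's r = 0.96 and Spearman's rho = 0.97 on the log2 scale (permutation p = 1e-05 for both, the smallest that 100000 permutations can give here, and 1.8e-05 after adjustment over 16 relations). Without the 2 animals farthest from the median r was 0.96. Within the 4 groups it lay between 0.97 and 1. The values within groups used every animal of a group, so those 4 animals were included and help to set them. Cyp4a8 and Cyp2c11 followed the 5 markers of the proximal straight segment, whose sum was carried by Slc7a13 and Acy3, with r = 0.97 and 0.98 (rho = 0.97 in both, permutation p = 1e-05, adjusted 1.8e-05). Leaving out the 2 farthest animals gave 0.97 and 0.98. Values within groups, again with those 4 animals included, were 0.97 to 0.99 and 0.96 to 0.99. Cyp4a2 and Cyp4a3 gave r = 0.91 and 0.92 with the straight segment (rho = 0.88 and 0.93, permutation p = 1e-05). With the proximal tubule list, Cyp4a8, Cyp2c24 and Cyp2c11 gave r = 0.74, 0.69 and 0.66, and Cyp4a2 and Cyp4a3 gave 0.87 and 0.86. With the straight segment, Cyp2c24 gave 0.95 and Cyp2c23 0.81. Cyp4a1 had r = 0.79 (permutation p = 5e-05, adjusted 6.7e-05) and rho = 0.79 (p = 0.00012, adjusted 0.00019) for the proximal tubule list, 0.71 without the 2 farthest animals, and r = 0.21 (rho = 0.25, permutation p = 0.37 and 0.28) for the straight segment. All these values come from the same libraries and share their depth and scaling.

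Summed proximal tubule markers had group medians of 6860 CPM in Ctrl, 7679 in CoCM, 8628 in ipABCB5 and 11069 in ivABCB5, in ranges of 3684 to 13606, 5369 to 19140, 5282 to 16148 and 5275 to 28742. Straight segment markers had medians of 288.9, 1001, 950.7 and 633.8 CPM, from 77.98 in Ctrl to 6211 in ivABCB5. These levels moved with the values of Cyp4a2, Cyp4a3, Cyp4a8, Cyp2c23, Cyp2c24 and Cyp2c11, and their part in the differences between groups was not tested. Of 9 hepatocyte markers, whose sum of 13.93 to 92.82 CPM was carried by Fga and Fgb, Alb was at 0 in 15 animals and did not exceed 2.83 CPM, Ttr and Ahsg did not exceed 3 counts, and Cyp7a1, the bile acid enzyme of liver, had 0 counts in all 24.

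**Figure D5:**
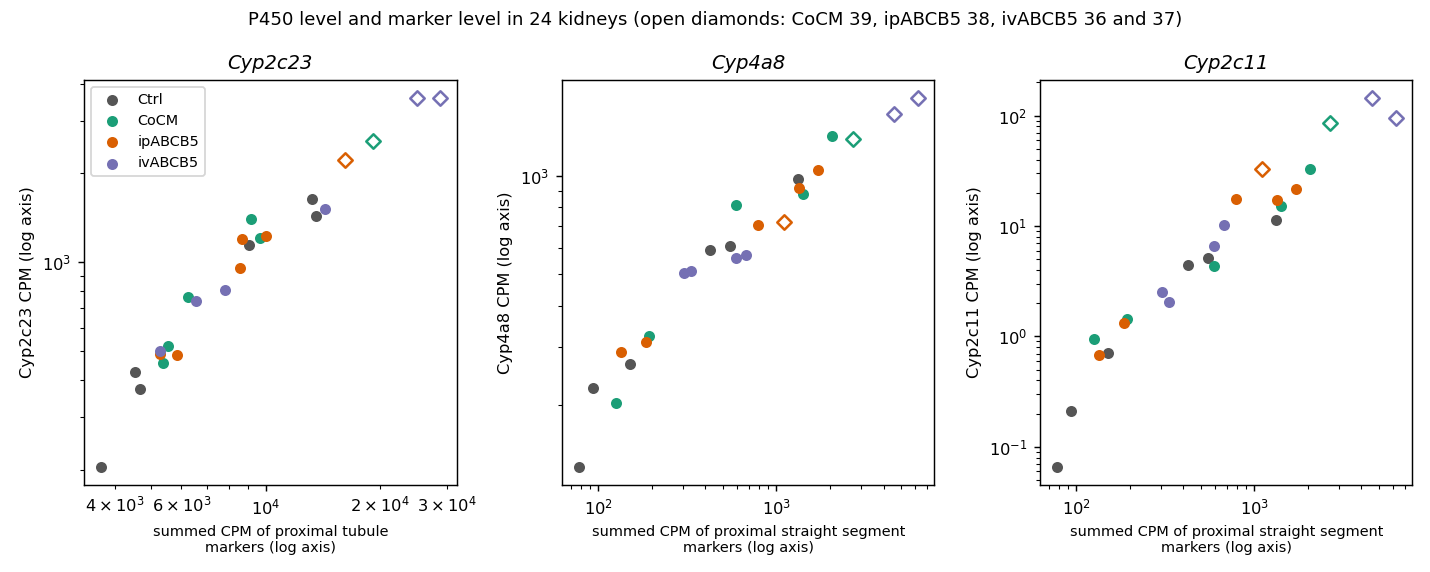
Level of Cyp2c23 against summed proximal tubule markers, and of Cyp4a8 and Cyp2c11 against summed proximal straight segment markers, in 24 kidneys (CPM, both axes on a log scale). Points of all 4 groups lie along the same line, with Ctrl 12 at the low end and ivABCB5 36 and 37 at the high end.

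Genes that work with the P450 enzymes were taken as fixed lists, and 0 genes of any list passed after adjustment in any comparison. Of 17 genes for redox partners and heme supply, 1 had an unadjusted p under 0.05 for CoCM, 0 for ipABCB5 and 2 for ivABCB5, all higher. Of all genes tested, 11.9%, 1.77% and 5.78% had such a p (5.96%, 1.26% and 4.44% higher). The list medians were 0.18, 0.15 and 0.29 on the log2 scale. The most abundant were Cyb5a, the electron carrier cytochrome b5, at 465.8 TPM and Pgrmc1, a heme-binding partner of P450 enzymes, at 254 TPM. Alas1, the first enzyme of heme synthesis, had medians of 107.8 CPM in Ctrl and 128.3 in ivABCB5, with a log2 fold change of 0.50 ± 0.19 (unadjusted p = 0.0148, adjusted p = 0.673). Fdx2, a mitochondrial ferredoxin, was at 26.55 to 32.53 CPM in Ctrl and at 33.57 to 40.85 in CoCM without overlap, with a log2 fold change of 0.31 ± 0.10 (adjusted p = 0.319). Such separation of CoCM and Ctrl was seen in 1.38% of all genes tested.

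Of 16 epoxide hydrolases and other eicosanoid enzymes, 0 had an unadjusted p under 0.05 for CoCM, 2 for ipABCB5 (1 higher, 1 lower) and 4 for ivABCB5 (1 higher, 3 lower). The shares of all genes tested were 11.9%, 1.77% (1.26% higher, 0.509% lower) and 5.78% (4.44% higher, 1.34% lower). The list medians were -0.04, 0.01 and -0.17. Ptgds, a prostaglandin D synthase, and Ephx1, the microsomal epoxide hydrolase, were the most abundant at 290.1 and 168.8 TPM. Ptges, a prostaglandin E synthase, had a log2 fold change of 0.55 ± 0.20 for ipABCB5 (unadjusted p = 0.0135, adjusted p = 0.978), and the phospholipase Pla2g6 had 0.55 ± 0.22 for ivABCB5 (unadjusted p = 0.0208, adjusted p = 0.673).

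Of 21 nuclear receptors and regulators tested, 1 was lower for CoCM, 0 differed for ipABCB5 and 3 were higher for ivABCB5 at an unadjusted p under 0.05. At that level 11.9%, 1.77% and 5.78% of all genes tested differed (5.96% lower for CoCM, 4.44% higher for ivABCB5). The list medians were 0.05, 0.01 and 0.11. Nfe2l2, which regulates antioxidant genes, had a mean of 147.6 TPM. Cebpb, an acute-phase regulator, was at a median of 63.58 CPM in Ctrl, 59.87 in ipABCB5 and 100.3 in ivABCB5, with log2 fold changes of 0.68 ± 0.19 for ivABCB5 against Ctrl (unadjusted p = 0.00183, adjusted p = 0.673) and -0.71 ± 0.19 for ipABCB5 against ivABCB5 (adjusted p = 1). Nr1h4, the bile acid receptor, had 0.50 ± 0.20 for ivABCB5 (unadjusted p = 0.0189, adjusted p = 0.673).

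Of 21 PPAR alpha targets outside the P450 genes, 1 was higher and 1 lower for CoCM, 1 lower for ipABCB5 and 3 higher for ivABCB5 at an unadjusted p under 0.05. Among all genes tested, 5.96% were higher and 5.96% lower for CoCM, 0.509% lower for ipABCB5 and 4.44% higher for ivABCB5. The list medians were 0.1, 0.11 and 0.27. Fabp3 and Acadm, which carry and oxidise fatty acids, were the most abundant at 530.8 and 224.6 TPM. Cd36, a fatty acid transporter, had a log2 fold change of -0.51 ± 0.20 for CoCM (adjusted p = 0.371) and -0.49 ± 0.20 for ipABCB5 (adjusted p = 0.978), while Pex11a, a peroxisome division factor, had 0.59 ± 0.21 for ivABCB5 (adjusted p = 0.673). Of 20 conjugation enzymes tested, 1 was higher for CoCM, 0 for ipABCB5 and 1 for ivABCB5, against 5.96%, 1.26% and 4.44% of all genes. The list medians were 0.41, 0.33 and 0.59. Gsta2 and Gstp1, glutathione transferases, were the most abundant at 1033 and 793 TPM, and Gsta2 ranged from 60.32 CPM in Ctrl to 1953 in ivABCB5. The acetyltransferases Nat2 and Nat1 were higher in CoCM than in the mean of both cell groups, by 0.35 ± 0.13 and 0.21 ± 0.08 (adjusted p = 0.688 in both).

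Of the 28 P450 genes under the count minimum, 10 had 0 counts in all 24 samples, among them Cyp7a1, Cyp2c7, Cyp2c13, Cyp2a1, Cyp2a2 and Cyp3a2, and 19 did not exceed 3 counts in any sample. Another 5 reached 10 counts in 1 to 5 samples. The largest value among them was 54 counts of Cyp8b1, a bile acid 12-alpha-hydroxylase, in ivABCB5 37.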

How the data were processed

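RNA of 24 left kidneys was sequenced on BGISEQ-500 machines. Per the submitters' processing notes, reads were trimmed with Trim Galore 0.6.4 and quantified with kallisto 0.4.6 on rn6; the annotation release and strand setting are not given in the sources used here. The authors deposited estimated counts per Entrez gene, not normalized, and TPM values per gene; 86.4% to 87.3% of the estimated counts in a sample were whole. Symbols and upstream sequences came from RefSeq GRCr8 tables, and 17179 of 17334 identifiers had a symbol.

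Estimated counts were rounded, filtered with filterByExpr (12778 genes, all 43 members included), scaled by TMM and tested with edgeR 4.0.16 (glmQLFit, glmQLFTest, R 4.3.3) in 1 fit of all 24 animals, with Benjamini-Hochberg adjustment over all genes tested and a threshold of 0.05. Single members were also tested by two-sided exact permutation of mean log2 CPM (prior count 2). Alternatives were median-ratio size factors, other filters, the compared groups alone, DESeq2 1.42.0, limma 3.58.1 with quality weights, limma on log2(TPM + 1) and log2(TPM + 0.1), leaving out each animal, and leaving out the 4 animals that stood apart. The edgeR steps were tested on simulated data. No 2 libraries of a group agreed within sampling noise (smallest chi-square per degree of freedom 10.7). P-values measure the spread between animals, 1 library each, and intervals and floors cover counting error only.

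Named genes were every Cyp4a and Cyp2c member, the 10 members with the highest mean TPM, up to 3 members per contrast with the smallest unadjusted p under 0.05, and those next to the count minimum; of each list, the 2 with the highest mean TPM and the 2 with the smallest p. Cyp1b1, Cyp2d5, Cyp21a1, Cyp11a1, Cyp27a1, Cyp2u1, Cyp20a1 and the Cyp2j genes were named after their values were seen. The members and lists were chosen with earlier results of these data known. The values of 1 list gene that the rule would name are not reported here.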

Additional observations from a re-analysis of the deposited data

Results flagged for a closer look

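Within groups of 6 animals, an extreme value was looked for in 21 named P450 genes, which makes 84 pairs of gene and group, and 5 had an animal whose gap to the next was more than 0.625 of the group's range (Dixon's criterion). Chance alone gives about 1 in 20, or 4.2 here. Cyp1a1 was at 17.04 CPM in Ctrl 24, against 0.266 to 1.03 in the other 5 untreated animals. In CoCM 39, Cyp1a1 was at 44.04 CPM, against 0.364 to 15.25 in the other 5 of its group. Cyp2d5 was at 32.3 CPM in Ctrl 24, against 1.12 to 12.71 in the others. Cyp4v3 was at 149.6 CPM in ipABCB5 38, against 93.89 to 111.3, and at 68.77 CPM in ivABCB5 37, against 92.11 to 103.5.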

How the results depend on the processing

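The count of members passing the adjusted threshold was 0 in all 6 tests under each alternative and each leave-one-out fit (range 0 to 0). No paired analysis was possible because the animal numbers do not recur between groups. Signs were compared for 19 members. Cyp4a and Cyp2c genes were taken against Ctrl, and any member in each comparison where its unadjusted p was under 0.05. Alternatives with all or 20 animals gave 333 such fold changes, 10 of them with the opposite sign. Without the 4 animals that stood apart these were Cyp1a1 (0.24 for ipABCB5 minus ivABCB5 and -0.064 for ivABCB5 against Ctrl), Cyp2c23 (-0.015, CoCM), Cyp2d1 (-0.077, ivABCB5) and Cyp2d4 (-0.0012, ivABCB5). With limma quality weights they were Cyp1a1 (0.65 between routes), Cyp2c6v1 (-0.25 for ipABCB5 and 0.081 for ivABCB5), Cyp2d4 (-0.024, ivABCB5) and Cyp4a1 (-0.14, ivABCB5). Outside these 19, further members turned sign against Ctrl without the 4 animals. For ivABCB5 they were Cyp2j4 (-0.11), Cyp2j3 (-0.097), Cyp1b1 (0.12), Cyp11a1 (0.023), Cyp2t1 (-0.054), Cyp2r1 (-0.054), Cyp4f17 (0.10) and Cyp4f18 (-0.012). For ipABCB5 they were Cyp2j10 (-0.10), Cyp1b1 (0.015), Cyp20a1 (-0.027), Cyp2t1 (-0.00081), Cyp7b1 (0.047), Cyp2r1 (-0.0037) and Cyp2f4 (-0.17). Cyp20a1 also turned for CoCM (-0.0078). Differences between routes, mostly outside the 333, turned as well. Without the 4 animals, ipABCB5 minus ivABCB5 went from -0.62 to 0.21 for Cyp4a2, -0.53 to 0.22 for Cyp4a3 and -0.44 to 0.28 for Cyp4a8. It went from -1.52 to 1.14 for Cyp2c11 and -0.67 to 0.56 for Cyp2c24, while Cyp4a1, Cyp2c23 and Cyp2c6v1 kept their sign. Positive differences numbered 13 of 43 with all animals and 26 without the 4. The median over all 43 members for ipABCB5 minus ivABCB5 was -0.21, against 0.05 without the 4 animals and 0.15 with quality weights. That for ivABCB5 against Ctrl was 0.018 with quality weights (23 of 43 higher). Leaving out 1 animal turned the sign in 6 of 456 fits, where log2 fold changes ran from -0.0061 to 0.66 for Cyp2c23 with CoCM, -0.0019 to 0.59 for Cyp2c23 and -0.0041 to 0.35 for Cyp2c6v1 with ipABCB5, and -0.34 to 0.0023 (CoCM) and -0.32 to 0.037 (ipABCB5) for Cyp4a1. None of these values had an adjusted p under 0.05, and the cause was not tested. Unadjusted p-values under 0.05 for ivABCB5 against Ctrl numbered 0 to 11 members across alternatives and 2 to 18 across leave-one-out fits. At the ends of the first range, all genes gave 159 of 12884 (without the 4 animals) and 968 of 12778 (DESeq2). Over all genes, calls for CoCM against Ctrl were 1 by edgeR, 81 by DESeq2 and 183 by limma with quality weights, and 31 by edgeR without Ctrl 23. Genes near 1 CPM, such as Cyp2c6v1 and Cyp3a9, rest on few counts, and fold changes of Cyp2c11 and Cyp1a1 have standard errors above 1.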
